A study of Mus musculus with 2 samples.

Results

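The genes described here are 10 neutrophil granule genes, Camp, Ngp, Ltf, Lcn2, Mmp8, Mmp9, Elane, Mpo, Chil3 and Cd177, out of 32285 genes in the count matrices of both libraries. They were chosen by name and not by a measured value, and all 10 were found in both matrices. The 10 genes were followed in neutrophils, taken as cells in which S100a8 and S100a9 together made up at least 0.5% of the unique molecular identifiers (UMIs, one per captured RNA molecule), and in the cells outside this gate.

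Neutrophils pack their granules in sequence while they mature in the bone marrow, and a granule holds the proteins that were made while it formed. Primary (azurophil) granules form first, at the promyelocyte stage, and carry the elastase Elane and the myeloperoxidase Mpo. Secondary (specific) granules follow at the myelocyte stage and carry the cathelicidin Camp, the neutrophilic granule protein Ngp, the iron-binding lactotransferrin Ltf and the siderophore-binding lipocalin Lcn2, whereas the gelatinase Mmp9 belongs to the tertiary granules made later still. Mmp8 is a neutrophil collagenase, Chil3 (Ym1) a chitinase-like lectin that monocytes and macrophages also make, and Cd177 a surface glycoprotein stored in secondary granules. Blood neutrophils largely stop transcribing the primary and secondary genes, so the RNA of these genes marks immature cells even though the proteins persist.

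The series compared live CD45+ cells sorted from mouse liver tumors under lenvatinib, a multikinase inhibitor, with those under lenvatinib plus palbociclib, an inhibitor of the cyclin-dependent kinases CDK4 and CDK6 (combo group), with 1 library per group. Tumors were raised in wild-type male C57BL/6J mice, 6 to 8 weeks old, by hydrodynamic injection of MYC, an sgTrp53 plasmid and Sleeping Beauty transposase, and all mice received 30 mg/kg lenvatinib from 12 days after injection for 25 days before the groups were formed. The lenvatinib group then stayed on lenvatinib at 30 mg/kg, and the combo group received lenvatinib at 30 mg/kg together with palbociclib at 100 mg/kg. The number of mice behind each library was not given in the sources used here. With 1 library per group no difference has a replicate check, treatment cannot be told apart from library preparation, and every interval given (exact Poisson for CPM, which is UMIs of a gene scaled to 1000000 UMIs of the same cells, and exact Clopper-Pearson for shares of cells, both at 95%) covers counting error only.

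After removal of barcodes with more than 6000 genes or more than 25% mitochondrial UMIs, 14201 cells remained under lenvatinib and 11613 under combo, with median depths of 5541 and 5754 UMIs; 49 barcodes occurred in both libraries. The gate held 929 cells under lenvatinib (6.54%, interval 6.14% to 6.96%) and 2311 under combo (19.9%, 19.2% to 20.6%). Gated cells were shallower under lenvatinib, with a median of 2709 UMIs against 5959. Neutrophil markers fixed for this purpose were concentrated in the gate: Csf3r, the G-CSF receptor, was at 887 CPM inside against 14.8 CPM outside under lenvatinib and at 495 against 32.7 CPM under combo, and the chemokine receptor Cxcr2 was at 499 against 4.53 CPM and at 375 against 6.36 CPM. In a clustering of all cells that did not use the 10 genes, S100a8 or S100a9, 86.2% of gated cells under lenvatinib and 81.7% under combo fell in neutrophil-like clusters. Monocyte and macrophage-like (Mo/MF-like) clusters held 10 gated cells (1.08%) under lenvatinib and 239 (10.3%) under combo, which bears on Chil3 below. Close to the limit, 146 and 268 gated cells had S100a8 and S100a9 at under 1% of UMIs, and 200 and 1054 cells outside the gate lay between 0.25% and 0.5%.

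Camp, Ngp, Ltf and Mmp8 share a chromosome in the mouse annotation (GENCODE vM21, mm10). Camp (ENSMUSG00000038357; chr9:109847379-109849617, minus strand), Ngp (ENSMUSG00000032484; chr9:110419747-110423012, plus strand) and Ltf (ENSMUSG00000032496; chr9:111019271-111042767, plus strand) lie near each other, and Mmp8 (ENSMUSG00000005800) lies farther off at chr9:7558456-7568485. Lcn2 and Mmp9 are on chromosome 2, Elane (ENSMUSG00000020125; chr10:79886247-79888215) on chromosome 10 and Mpo (ENSMUSG00000009350; chr11:87793581-87804413) on chromosome 11. The RefSeq promoter table (GRCm38.p6, the same assembly as mm10) held 9 of the 10 genes, with no entry for Mmp9. The stretches below belong to the 3 secondary granule genes that ran together in the cells and to the pair of primary granule genes that did not follow them. Each is written 5′ to 3′ along the gene, reaches up to the first annotated exon, and has in capitals every match to the C/EBP letters TTGCNNAA, the PU.1 letters GAGGAA or the RUNX letters TGTGGT on either strand.
Camp (chr9:109849618-109849706, minus strand): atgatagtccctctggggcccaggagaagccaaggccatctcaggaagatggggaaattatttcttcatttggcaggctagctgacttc
Ngp (chr9:110419558-110419746, plus strand): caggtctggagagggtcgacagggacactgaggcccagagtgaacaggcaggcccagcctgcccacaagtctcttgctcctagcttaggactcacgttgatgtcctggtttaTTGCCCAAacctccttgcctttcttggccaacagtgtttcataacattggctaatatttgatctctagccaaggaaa
Ltf (chr9:111019042-111019270, plus strand): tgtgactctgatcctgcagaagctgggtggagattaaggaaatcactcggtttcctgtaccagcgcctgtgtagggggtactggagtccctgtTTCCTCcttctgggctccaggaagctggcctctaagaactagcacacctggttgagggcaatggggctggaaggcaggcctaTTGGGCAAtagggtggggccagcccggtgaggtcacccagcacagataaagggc
Elane (chr10:79886062-79886246, plus strand): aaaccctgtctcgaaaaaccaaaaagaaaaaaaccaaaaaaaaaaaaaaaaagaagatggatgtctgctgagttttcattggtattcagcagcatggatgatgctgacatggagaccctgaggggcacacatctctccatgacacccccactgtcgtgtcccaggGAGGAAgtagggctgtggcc
Mpo (chr11:87793534-87793580, plus strand): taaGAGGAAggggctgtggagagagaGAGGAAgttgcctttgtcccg
In the 250 bases before the RefSeq start, the C/EBP letters occurred in 4 of the 9 genes (Ngp, Ltf, Lcn2 and Mmp8) and in 9.56% of all 32851 promoters, the PU.1 letters in 6 of the 9 (Ltf, Lcn2, Mmp8, Elane, Mpo and Cd177) and in 23.3% of promoters, and the RUNX letters in none of the 9 and in 14.0% of promoters. The printed stretch of Ltf held a C/EBP and a PU.1 match, that of Ngp a C/EBP match, those of Elane and Mpo PU.1 matches, and that of Camp no match to these letters; no matches overlapped. Letter matches are a description of sequence and not of binding.

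Over all gated neutrophils, Ngp, Ltf, Lcn2, Mmp8, Chil3 and Cd177 stood higher under combo, and the primary granule genes stood far lower. Camp was at 11572 CPM under lenvatinib (11468 to 11676) and at 8933 CPM under combo (8892 to 8974), a combo to lenvatinib ratio of 0.772, which turned to 1.29 with all cells of the neutrophil-like clusters in place of the gate. Ngp was at 9358 against 11900.1 CPM (ratio 1.27) and Ltf at 2176 against 3200.3 CPM (ratio 1.47). All 3 differences were below 2-fold over gated cells, and the direction for Camp depended on how the cells were chosen. The same change of cells took the ratio of Ngp to 1.97 and that of Ltf to 2.08. Lcn2, which starves bacteria of iron, was at 5132 CPM (5063 to 5202) against 10717 CPM (10672 to 10762), a ratio of 2.09, and of 1.74 with the gate at 2%. Mmp8 was at 451 CPM (430.4 to 472) against 1102 CPM (1088 to 1116), a ratio of 2.44. Cd177 was at 364 against 579 CPM (ratio 1.59) and Chil3 at 1697 against 3102 CPM (ratio 1.83).

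The gelatinase Mmp9 was nearly level, at 964 CPM (934 to 995) under lenvatinib and 1029 CPM (1015 to 1043) under combo, a ratio of 1.07, and of 0.927 with each cell weighted equally. Elane was at 589 CPM (565 to 613) under lenvatinib and at 21.8 CPM (19.9 to 24.0) under combo, a ratio of 0.0371. Mpo was at 308 CPM (291 to 326) against 6.87 CPM (5.78 to 8.11), a ratio of 0.0223. The combo level of Mpo was near that of T-like (4.97 CPM) and NK-like clusters (8.13 CPM) outside the gate in the same library. The ratio of Mpo thus does not measure a level particular to neutrophils under combo. All 10 genes passed the minimum of 20 CPM in 1 library, and 2 of the 10 genes (Lcn2 and Mmp8) were at least 2-fold higher under combo, where 1.67% of the 4980 genes with at least 20 CPM in 1 library were, and 2 (Elane and Mpo) at least 2-fold lower, where 13.2% were. The median ratio of the 10 genes was 1.37, beside 0.728 over all genes compared. Counts of other genes also lay in few cells under lenvatinib. There the top 10 gated cells of each gene held 34.6% of Camp UMIs, 28.5% of Ngp UMIs and 37.3% of Chil3 UMIs. Under combo these shares were 10.3%, 6.61% and 9.43%. The intervals cover counting error only and do not reflect this concentration.

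**Figure D1:**
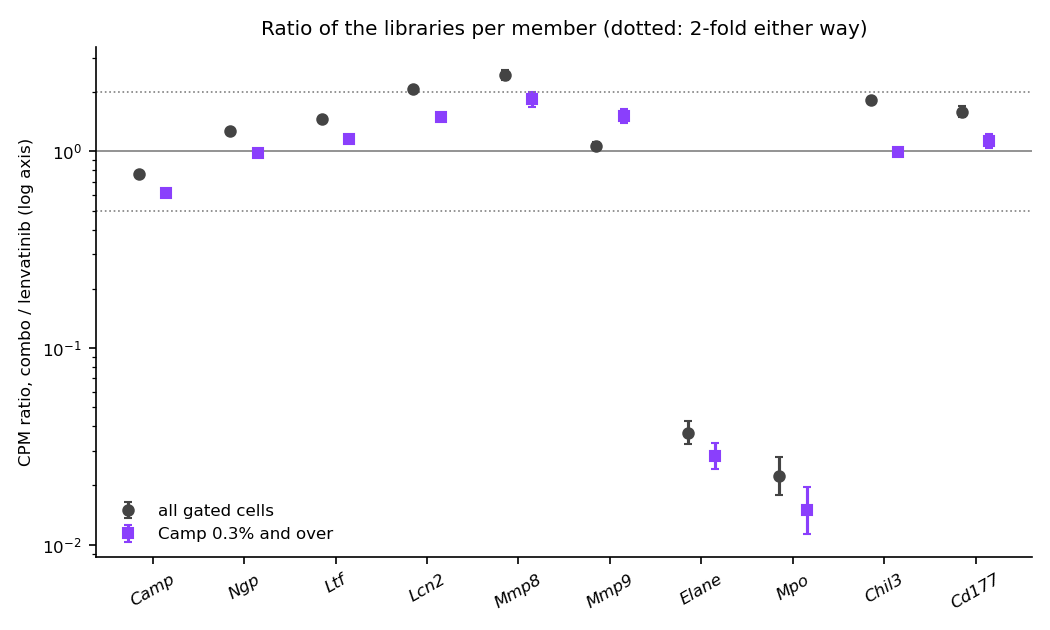
CPM ratio of combo to lenvatinib for each of the 10 genes on a log axis, over all gated neutrophils (circles) and over gated cells with Camp at 0.3% of UMIs or more (squares); bars set the ends of the 2 Poisson intervals against each other and dotted lines mark 2-fold. Lcn2 and Mmp8 lie above the upper line only over all gated cells, and Elane (0.0371 and 0.0282) and Mpo (0.0223 and 0.0150) lie far below the lower one in both.

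The Elane and Mpo values rested on a handful of cells, fewer than for the other genes followed. Under lenvatinib 18 gated cells held at least 3 Elane UMIs, with 701 in the highest, 21.0 at the median and 4 in the lowest, and the top 2 cells held 55.1% of all 2417 Elane UMIs in the gate. Under combo 13 gated cells held at least 3, with 163 in the highest, 6.00 at the median and 3 in the lowest, and the top 2 held 55.3% of 445 UMIs. Both libraries thus had a short series of Elane cells that differed in height and in share of the gate. The shares were 1.94% of gated cells (1.15% to 3.04%) under lenvatinib and 0.563% (0.30% to 0.960%) under combo. For Mpo, 9 gated cells under lenvatinib held at least 3 UMIs, the highest 510, and 4 cells under combo, the highest 48. Every cell with 3 Mpo UMIs also held 3 Elane UMIs in both libraries.

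**Figure D2:**
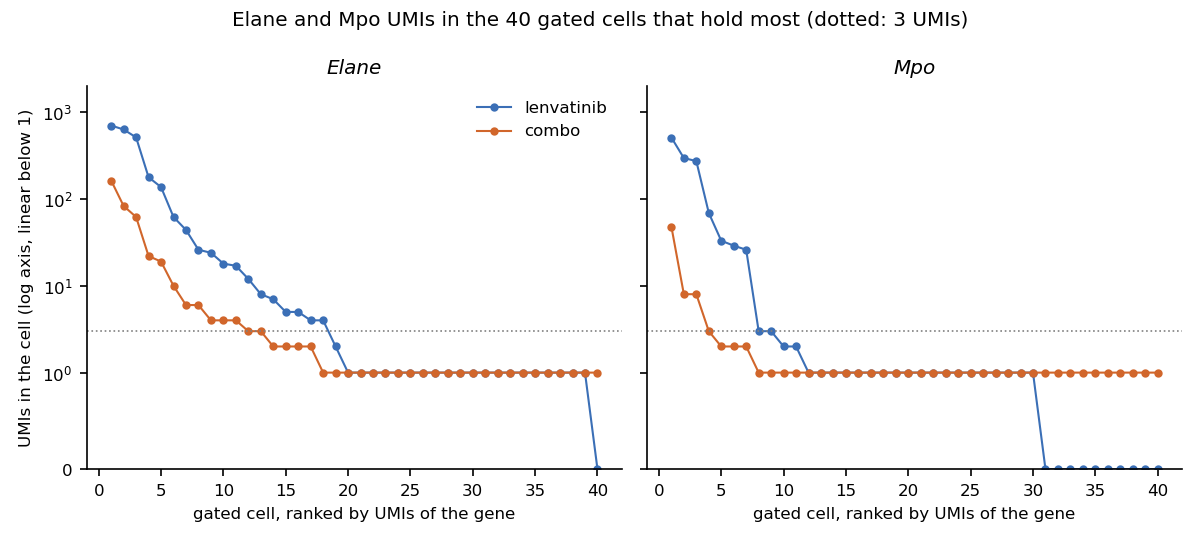
UMIs of Elane (left) and Mpo (right) in the 40 gated cells that hold most of each gene, ranked from the highest, on an axis that is logarithmic above 1 UMI and linear below; the dotted line marks 3 UMIs. The lenvatinib series starts at 701 Elane and 510 Mpo UMIs and the combo series at 163 and 48, and both reach 1 UMI per cell within 20 cells.

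Without the cells that held 3 UMIs of Elane or Mpo, the combo to lenvatinib ratio was 0.474 for Elane and 0.734 for Mpo, and no gene of the 10 was then at least 2-fold lower by the rule, as both were under 20 CPM. These cells were deep, with medians of 27648 and 33331 UMIs, none was called a doublet, and none lay in a neutrophil-like cluster. They lay mostly in an unnamed cluster led by Elane, Fcnb, Camp and Prtn3, which held 16 of the 18 under lenvatinib and 7 of the 13 under combo, where 4 others lay in Mo/MF-like clusters. Alongside 6027 CPM of Elane, the 18 lenvatinib cells had 28687 CPM of Camp, 14216 CPM of Ngp, 1663 CPM of Ltf and 5.03 CPM of Mmp9. The 13 combo cells had 847 CPM of Elane, 26667 CPM of Camp, 18159.6 CPM of Ngp, 1725 CPM of Ltf and 8.71 CPM of Mmp9. Summed over these cells in the gate, Camp was thus high and Mmp9 nearly missing. The single cells differed in Camp. Under lenvatinib 12 of the 18 had Camp at 1% of UMIs or more and 1 had it at under 0.03%. Under combo 7 of the 13 had 1% or more, 3 had under 0.03% and 3 had no Camp UMI. Outside the gate 29 cells under lenvatinib, 8 of them basophil and mast-like, and 47 under combo, 38 of them basophil and mast-like, also held 3 UMIs of Elane or Mpo, and Camp was there at 24.9 and 51.1 CPM. All 18 lenvatinib cells and 10 of the 13 combo cells had UMIs of at least 2 genes of a 10-gene cycling list. In the 9 lenvatinib cells with 3 Mpo UMIs, Ltf was at 177 CPM and Lcn2 at 621 CPM, against 1663 and 5078 CPM in the 18.

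Gated cells were then placed along the share of UMIs taken by Camp, from 1% and over down to none, and the loss of the other 9 genes was read along these bins. From the top bin to none the bins held 95, 21, 29, 55, 23 and 706 cells under lenvatinib and 324, 95, 85, 175, 442 and 1190 under combo. The bin under 0.03% can hold deep cells only, its shallowest having 3370 and 3335 UMIs, and 19.9% of it under combo were Mo/MF-like.

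Ltf and Ngp had the largest losses. Ltf ran through the 6 bins at 7526, 2196, 747, 106, 16.5 and 14.5 CPM under lenvatinib and at 8677, 4546, 2025, 414, 53.6 and 34.9 CPM under combo. Ngp ran at 31879.9, 8283, 5311, 1069, 1314 and 112 CPM under lenvatinib and at 31281, 15980.1, 9566, 3534, 768 and 331 CPM under combo. Under combo Ltf was last at or above 10% of its top level in the 0.1% to 0.3% bin and Ngp in the 0.03% to 0.1% bin. Under lenvatinib these were the 0.3% to 1% bin for Ltf and the 0.1% to 0.3% bin for Ngp, but without the Elane and Mpo cells both were last at 10% in the 0.1% to 0.3% bin, so that the order of this pair held in 1 library only. The top bin stood above the none bin 518-fold for Ltf and 284-fold for Ngp under lenvatinib, and 249-fold and 94.4-fold under combo. Compared with T-like cells outside the gate, the none bin stood 3.51 times higher in Ltf in the lenvatinib library and 1.48 times higher in the combo library.

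Lcn2 and Cd177 lost less. Lcn2 ran at 14335, 5438, 5498, 2821, 2755 and 1036 CPM under lenvatinib and at 20558, 16042, 13425, 7285, 4949 and 3381 CPM under combo, so that 7.23% and 16.4% of the top level were left in cells without a Camp UMI. Cd177 kept at least 50% of its highest level down to the 0.1% to 0.3% bin in both libraries and had 6.06% and 13.4% of its top level left in the none bin.

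Mmp8 and Mmp9 were not highest with Camp. Mmp8 ran at 486, 1564, 1409, 721, 995 and 237 CPM under lenvatinib and at 932, 2092, 2229, 1542, 1060.5 and 824 CPM under combo, with its highest value below the top bin in both. Mmp9 ran at 666, 1257, 1682, 1466, 1028 and 1003 CPM under lenvatinib and at 981, 1729.5, 1781, 1414, 734 and 964 CPM under combo. Mmp9 was highest in the 0.1% to 0.3% bin in both libraries and lost least of the 9 genes, its none bin standing at 151% of the top bin under lenvatinib and 98.3% under combo.

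**Figure D3:**
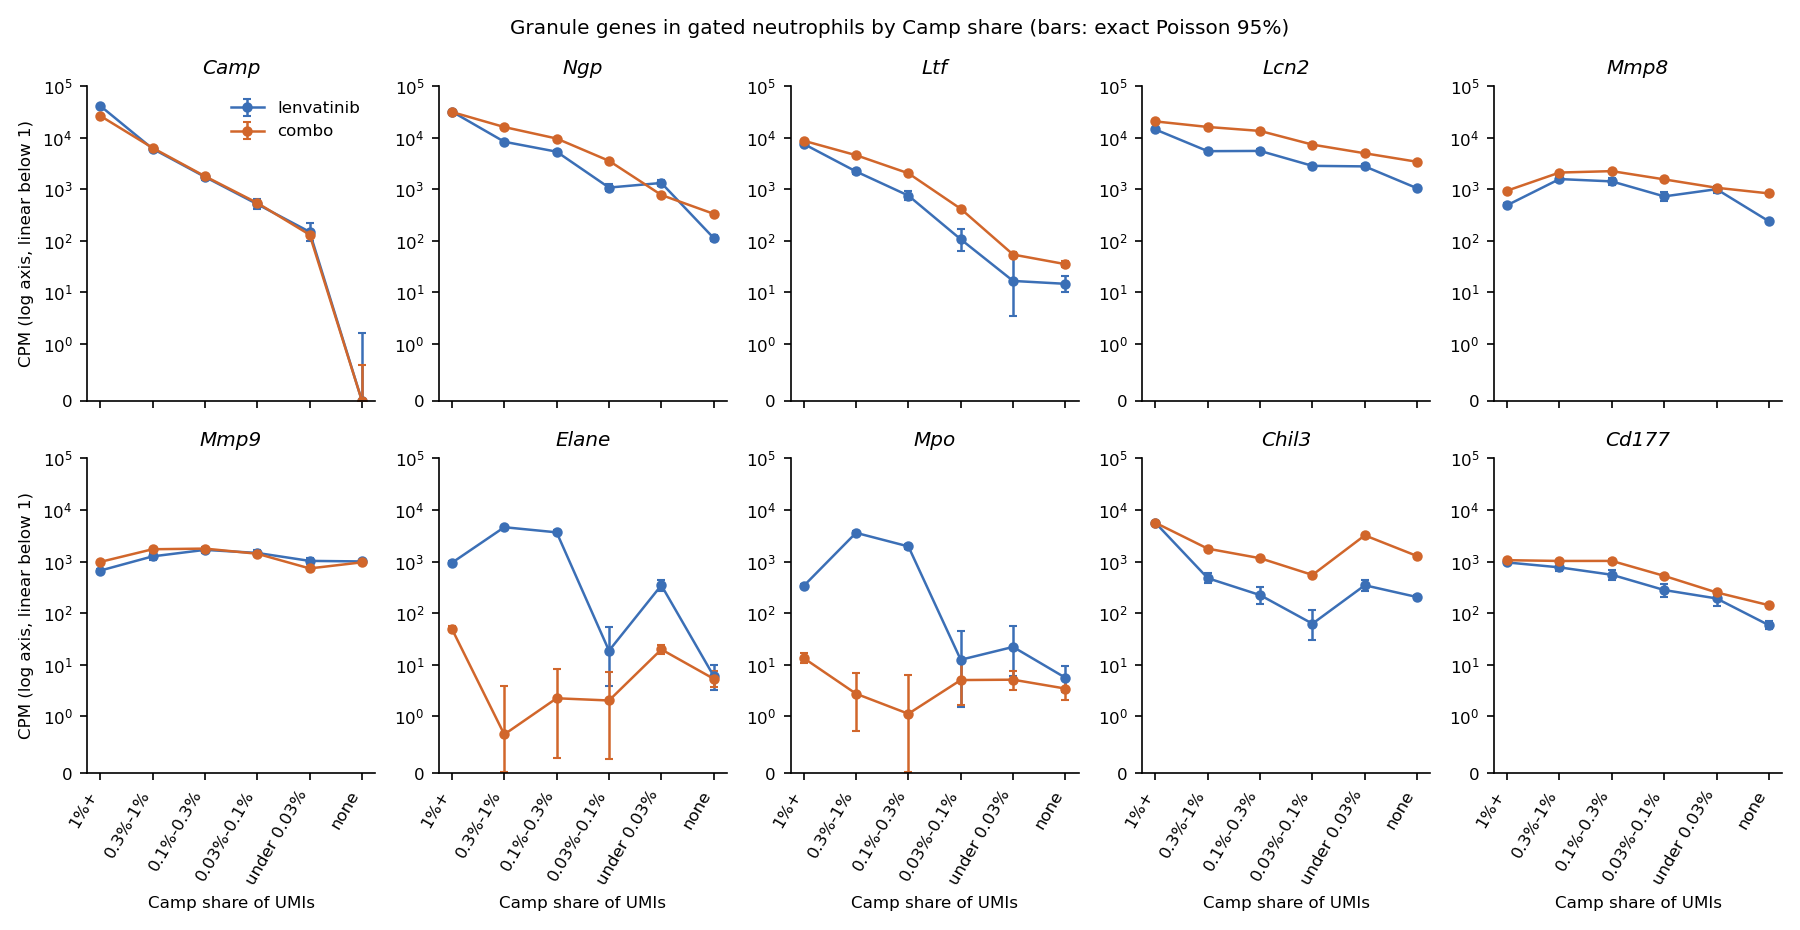
CPM of each gene in gated neutrophils (logarithmic above 1, linear below) by the share of UMIs taken by Camp, from 1% and over at the left to none at the right, in lenvatinib (blue) and combo (orange); bars are exact Poisson 95% intervals. Ngp and Ltf go down with Camp, Lcn2 and Cd177 go down less far, Mmp8 and Mmp9 peak below the top bin, and Elane and Mpo are high only under lenvatinib in bins where 1 to 12 cells hold 3 or more of their UMIs.

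Chil3 went down early, from 5643 to 475 CPM under lenvatinib and from 5647 to 1775 CPM under combo, and then stood higher again in the bin under 0.03%, at 346 and 3219.5 CPM. In the gated cells of the neutrophil-like clusters and the cluster led by Elane, the none-bin level of Chil3 was 18.1 CPM under lenvatinib and 241 CPM under combo, against 204 and 1276 CPM over all gated cells, and the top bin stood 312-fold and 23.5-fold above it. The higher Chil3 at low Camp under combo lay beside a larger share of Mo/MF-like cells in those bins (19.9% and 11.1%, against 4.35% and 1.27% under lenvatinib). Elane was highest in the 0.3% to 1% bin under lenvatinib, at 4632 CPM, where 4 of 21 cells held it, and was below 50 CPM in every bin under combo. Its none-bin level was 5.98 CPM (3.27 to 10.0) under lenvatinib and 5.30 CPM (3.6 to 7.52) under combo, where 3 Elane and Mpo cells lay in the bin and 3.28 CPM remained without them, beside 4.06 and 2.02 CPM in T-like cells outside the gate.

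Counted at a 10-fold drop from the top to the none bin, 7 of the 9 genes passed under lenvatinib (all but Mmp8 and Mmp9), where 1.62% of the 5448 genes compared did. Under combo 2 of the 9 passed (Ngp and Ltf), where 0.703% of 4554 genes did. Lcn2 at 6.08-fold, Cd177 at 7.47-fold, Elane at 9.27-fold and Chil3 at 4.42-fold were short of it under combo. The difference in count between the libraries was not tested. Binning was done by Camp itself, so the count is a description of how far each gene followed it. Leaving out the Elane and Mpo cells took Elane and Mpo off the lenvatinib count, at 0.595-fold and 0.641-fold.

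Among cells with Camp at 0.3% of UMIs or more, which were 116 of 929 gated cells under lenvatinib (12.5%, 10.4% to 14.8%) and 419 of 2311 under combo (18.1%, 16.6% to 19.8%), most of the library differences were smaller. Ngp was at 28825 against 28432 CPM (ratio 0.986), Chil3 at 4974 against 4926 CPM (0.990), Cd177 at 934 against 1055 CPM (1.13) and Ltf at 6836 against 7908 CPM (1.16). Lcn2, at 13183 against 19717 CPM, had a ratio of 1.5, Mmp8, at 625 against 1148 CPM, one of 1.84, and Mmp9, at 743 against 1120.2 CPM, one of 1.51. None of the 10 genes was at least 2-fold higher under combo in this class, where 2.45% of 4535 genes were, and Elane and Mpo were at least 2-fold lower, where 23.0% were; without S100a8 and S100a9 in the total Mmp8 passed, at 2.06, and without the Elane and Mpo cells no gene was 2-fold lower. Per cell, Mmp8 had a UMI in 40.5% (31.5% to 50%) of the class under lenvatinib and in 85.7% (82.0% to 88.9%) under combo, at different depths. Camp, which sets the class, was at 36732 against 22676 CPM.

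The class was made up differently in the libraries. The cluster led by Elane held 27 of its 116 cells under lenvatinib (23.3%) and 41 of 419 under combo (9.79%), and the neutrophil-like cluster led by Ltf, Ngp, Camp and Lcn2 held 68 (58.6%) and 348 (83.1%). Within the Ltf cluster, with 80 and 408 gated cells, Mmp8 was at 1385 CPM (1302 to 1473) under lenvatinib and 1421 CPM (1394 to 1449.8) under combo and Mmp9 at 1593 against 1352 CPM, so that neither was higher by 1.5-fold there. Ngp (29826 against 26156 CPM), Ltf (8287 against 7745 CPM), Chil3 (3938 against 3742 CPM) and Cd177 (1149 against 1072 CPM) were all within 1.2-fold. Lcn2 was at 16159.7 against 19615 CPM, a ratio of 1.21. Camp was the gene of the 8 not counting Elane and Mpo that differed most in this cluster, at 31859 CPM (31455 to 32266) against 18786 CPM (18684 to 18889), a ratio of 0.590.

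In the cluster led by Elane, with 28 and 41 gated cells, Camp was at 38409.6 against 35747 CPM and Ngp at 25067 against 34125 CPM. Mmp8 was at 0 UMIs under lenvatinib, where 3 UMIs, taken as the limit that a count of 0 allows, are 5.0 CPM, and at 54.8 CPM under combo, with 38.9% of its 72 combo UMIs in 1 cell. Mmp9 was at 16.7 against 129 CPM, with 50% and 29.4% of its UMIs in 1 cell. Chil3 was at 5673 against 9972 CPM, the highest of the 4 clusters in both libraries. Elane was at 3883 CPM (3727 to 4044) against 234 CPM (208 to 261) and Mpo at 2075 against 54.0 CPM, with a UMI of Elane in 60.7% of these cells under lenvatinib and 19.5% under combo.

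The largest gated cluster, led by Cstdc4 and Stfa2l1, with 602 and 1339 cells, held low levels of the secondary granule genes that differed several-fold between the libraries. Ngp was at 301 CPM (276 to 328) under lenvatinib and 1761 CPM (1731 to 1791) under combo, Ltf at 20.3 against 261 CPM, Camp at 96.4 against 419.5 CPM and Chil3 at 24.4 against 432 CPM. Lcn2 was at 1529 against 5884 CPM and Mmp8 at 386 against 1232 CPM. Mmp9 was at 1389 CPM (1334 to 1446) against 1381 CPM (1354 to 1407), a ratio of 0.994. In T-like cells outside the gate the same secondary genes also stood higher under combo (Ngp at 14.3 against 66.2 CPM, Ltf at 4.13 against 23.5 CPM, Lcn2 at 14.0 against 119 CPM), levels below those of the cluster; the part of RNA from outside the cell in the cluster difference was not tested. In the cluster led by Ptgs2 and Csf3r, with 119 and 140 cells, Lcn2 (737 against 1809 CPM) and Chil3 (52.5 against 204 CPM) were higher under combo, and Camp (355 against 174 CPM) and Ngp (475 against 259.7 CPM) lower.

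**Figure D4:**
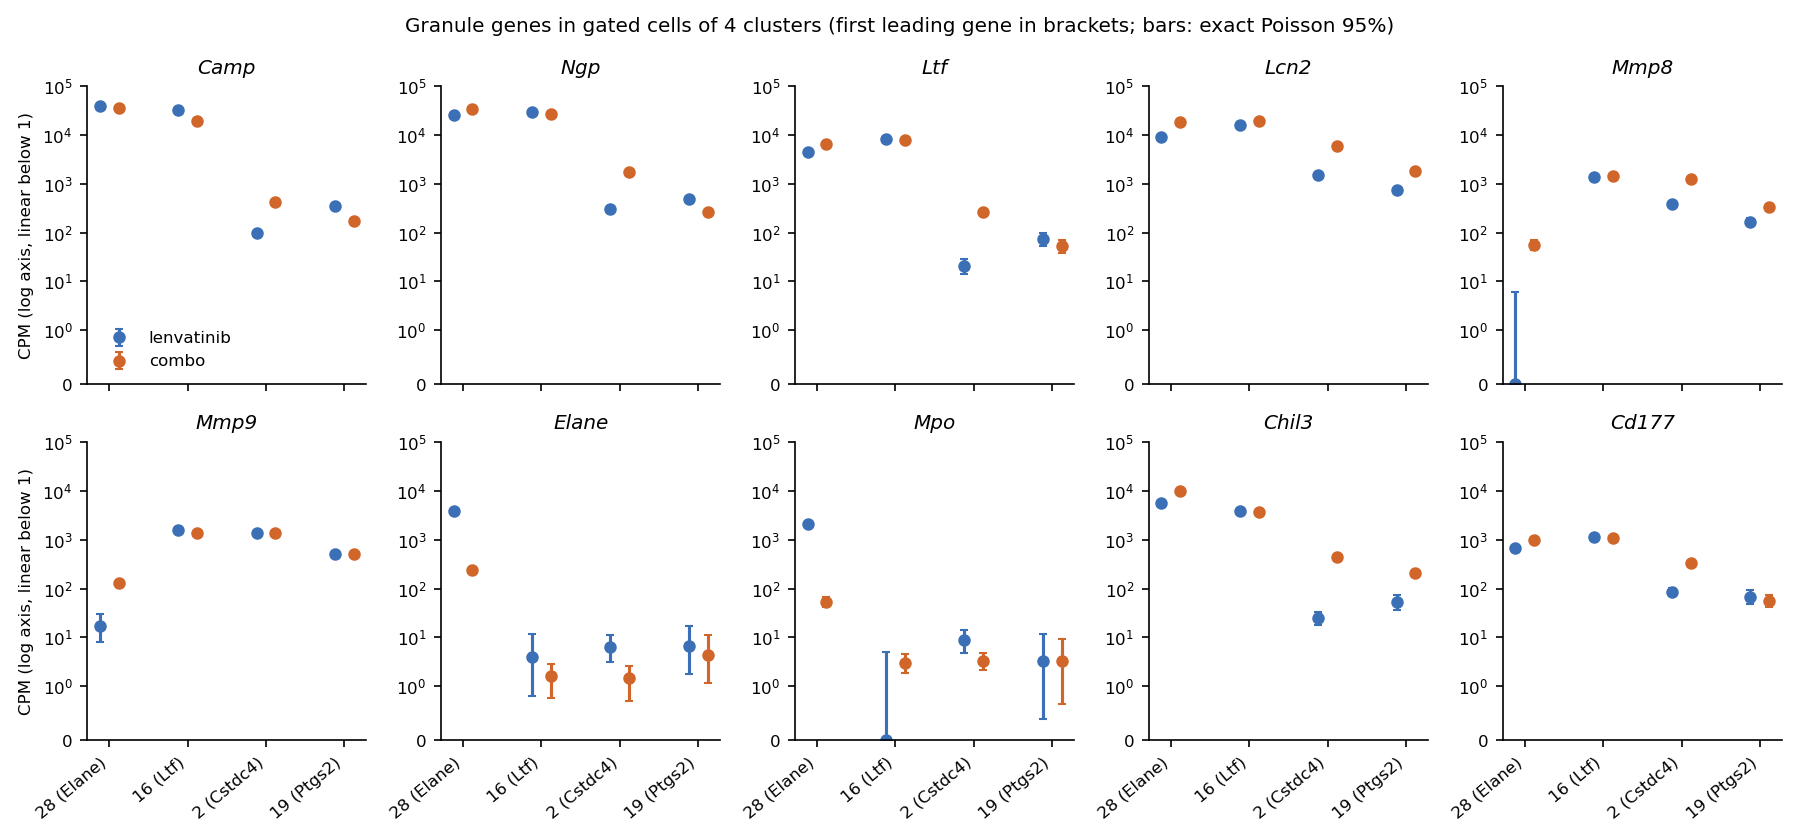
CPM of each gene (logarithmic above 1, linear below) in gated cells of the cluster led by Elane and of 3 neutrophil-like clusters, led by Ltf, Cstdc4 and Ptgs2, for lenvatinib (blue) and combo (orange); bars are exact Poisson 95% intervals. Most genes meet in the Ltf cluster and part in the Cstdc4 cluster, where Mmp9 (1389 and 1381 CPM) does not part.

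Over all gated cells, a set not chosen by Camp, the ratio of Camp to Ngp UMIs was 1.24 (1.21 to 1.26) under lenvatinib. Under combo it was 0.751 (0.744 to 0.757). The ratio was also higher under lenvatinib in Camp-rich cells, a class set by Camp, the numerator. It was 1.27 (1.25 to 1.30) under lenvatinib and 0.798 (0.791 to 0.805) under combo in cells with Camp at 0.3% or more, and 1.10 against 0.736 in those of them that lay in neutrophil-like clusters. Per cell, among cells of the class with at least 10 UMIs of each gene, the quartiles were 0.817, 1.26 and 1.69 in 102 cells under lenvatinib and 0.516, 0.696 and 0.926 in 418 cells under combo, so that the lower quartile of one library lay between the median and the upper quartile of the other. Outside the gate, over all cells, it was 1.46 (1.32 to 1.62) against 0.919 (0.866 to 0.976), the same order. The cells outside the gate included neutrophil-like ones, and the source of their Camp and Ngp UMIs was not tested. The order was the other way in the bin under 0.03%, at 0.113 (0.0656 to 0.187) against 0.169 (0.151 to 0.190), and in neutrophil-like cells outside the gate, at 0.652 against 1.30 from 15 and 48 Camp UMIs, with intervals that overlapped in both. Ltf per Ngp was closer, at 0.237 against 0.278 in the class. Lcn2 per Ngp was 0.457 against 0.693.

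Other genes of the granule program were taken from lists, and their counts stand beside the same shares of all genes compared over gated cells, 1.67% higher and 13.2% lower. Of 9 other primary granule genes, 5 were at least 2-fold lower under combo over gated cells and 1, the cathepsin Ctsc (58.7 against 174 CPM), was higher. Prtn3, the proteinase 3 gene, was at 511 against 70.3 CPM and Calr, a chaperone of the endoplasmic reticulum that assists the folding of Mpo, at 246 against 176 CPM, while Serpinb1a, an elastase inhibitor, was at 238 against 359 CPM and the proteoglycan gene Srgn at 4700.4 against 3262 CPM. Prtn3, Ctsg and Ms4a3, 3 of the 5, were at 5104, 1044 and 931 CPM in the 18 gated lenvatinib cells with 3 UMIs of Elane or Mpo. Without these cells, the lenvatinib cells with Camp at 0.3% or more had 34.6, 2.10 and 59.8 CPM. The lower values of these 3 genes are thus not separate from the Elane and Mpo result. Of 11 other secondary granule genes, 3 were at least 2-fold higher under combo, among them lysozyme (Lyz2, 3184 against 8111 CPM) and haptoglobin (Hp, 752 against 1936 CPM), and 1 was lower (Fcnb, a ficolin). Pglyrp1, which binds bacterial peptidoglycan, was at 1285 against 1854 CPM and Anxa1 at 995 against 1861 CPM. The median ratios were 0.469 for the primary and 1.44 for the secondary list, beside 0.728 over all genes compared.

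Of 11 measured tertiary and secretory genes none was at least 2-fold higher and 1 lower, with Cd14 at 424 against 703 CPM and Clec4d at 555 against 308 CPM. Along the Camp bins 4 of 11 under lenvatinib and 1 of 10 under combo were at least 10-fold higher in the none bin than in the top bin, where 3.25% and 2.13% of all genes compared were. Clec4d went from 18.8 to 854 CPM under lenvatinib and from 41.8 to 597 CPM under combo, whereas Fpr2, a formyl peptide receptor, was at 250.5 and 212 CPM and at 172 and 159 CPM. Of 10 measured regulators of the granule program 2 were at least 2-fold lower under combo and none higher, a share near that of all genes. Csf3r went from 98.4 CPM in the top bin to 1337 CPM in the none bin under lenvatinib and from 99.5 to 991 CPM under combo, and Cebpb, a factor of late neutrophil stages, from 390.0 to 3262 CPM and from 961 to 4062 CPM. Cebpe, the factor of the secondary granule stage, went from 391 to 11.5 CPM and from 264 to 13.5 CPM, in the direction of Camp. Cebpe is named after its values were seen.

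Of 15 measured genes of mature neutrophils, 7 were at least 2-fold lower and 1, Retnlg (3848 against 9963 CPM), higher under combo. Ccl4, among the 7, was at 1306 against 346 CPM, whereas Il1b was at 4333 against 3418 CPM and Nfkbia at 2826 against 2332 CPM. Of 9 measured cycling genes, 5 were at least 2-fold lower over all gated cells, with Mki67 at 119 against 47.3 CPM, and all 10 were at least 2-fold lower in cells with Camp at 0.3% or more, where 23.0% of all genes were and the median ratio was 0.322 beside 0.694 over all genes compared. Within the cluster led by Elane the summed cycling list was at 2753 CPM (2622 to 2889) under lenvatinib and 2491 CPM (2406 to 2577) under combo, and in the Ltf cluster at 95 against 46.4 CPM. The lower cycling level among Camp-rich cells under combo thus stood beside a smaller share of the cluster led by Elane, whose part in it was not tested.

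The genes whose values over the 6 bins of both libraries were most like those of Ngp (Pearson r of log2(CPM + 10), 12 points that share cells and depth within a bin) were Dstn (0.986), Anxa3 (0.986), Serpinb1a (0.984), Camp (0.971) and Cd177 (0.970). For Elane they were Mybl2 (0.973), Ctsg (0.973), Lsm6 (0.967), Arhgap11a (0.966) and 2810408I11Rik (0.963). For Mmp9 they were Slfn4 (0.864), Bmx (0.800), Pacs1 (0.797), Numb (0.772) and Cdk5r1 (0.758), lower values than for Ngp or Elane. Among the 10 genes, Ltf (0.955) and Lcn2 (0.920) followed Ngp, Mpo (0.95) followed Elane, and Mmp8 (0.628) was nearest to Mmp9.

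Outside the gate the 10 genes fell into those with 1 low level in all cell types and those with a level of their own in some. In T-like cells Camp was at 20.4 CPM under lenvatinib and 60.7 CPM under combo, in NK-like cells at 20.8 and 56.8 CPM and in B-like cells at 28.1 and 68.8 CPM. Counted per 100 S100a8 UMIs of the same cells, Camp was at 16.3 in T-like and 15.4 in gated cells under lenvatinib and at 8.65 and 7.21 under combo. Ngp was at 11.4 and 12.5 under lenvatinib and 9.43 and 9.61 under combo, and Ltf at 3.29 and 2.90 and at 3.35 and 2.58. Under lenvatinib these 3 genes thus stood to S100a8 in T-like cells nearly as they did in neutrophils. The T-like interval of Ngp (10.4 to 12.3) there lay just below the gated ratio. Under combo Ngp did so too, whereas the T-like intervals of Camp (8.24 to 9.07) and Ltf (3.09 to 3.61) lay above the gated ratio. A Camp UMI was found in 4.17% and 12.9% of T-like cells thinned to 2000 UMIs per cell, and its source was not tested. Lcn2 stood above the gated ratio, at 11.2 against 6.83 and at 16.9 against 8.65.

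Chil3 had its own level in Mo/MF-like cells, at 441 CPM under lenvatinib and 2752 CPM under combo, or 136 and 248 UMIs per 100 S100a8 UMIs against 2.26 and 2.50 in gated neutrophils. At 2000 UMIs per cell, 20.1% and 67.0% of these cells had a Chil3 UMI, beside 1.0% and 7.40% of T-like cells. DC-like cells under combo followed at 364 CPM. Mmp8 (63.5 and 179 CPM), Cd177 (30.7 and 71.5 CPM) and Lcn2 (82.6 and 318 CPM) were also higher in Mo/MF-like cells than in T-like cells (0.877 and 8.89 CPM, 1.0 and 6.01 CPM, 14.0 and 119 CPM). The Mo/MF-like class held its clusters in different shares in the 2 libraries, counted here with their gated cells. The largest, led by Zeb2 and Mefv, had 246 cells under lenvatinib and 785 under combo. Another, led by Saa3 and F13a1, had 166 and 662, and 1 led by C1qa had 161 and 24.

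Elane and Mpo had a level in basophil and mast-like cells, with Mpo at 852 CPM under lenvatinib and 394 CPM under combo and Elane at 638 and 134 CPM. A minority of these cells carried them: of 81 under lenvatinib 8.64% had an Elane UMI and 13.6% an Mpo UMI, and of 153 under combo 19% and 36.6%. These shares are at different depths, with medians of 6373 UMIs under lenvatinib and 22427 under combo. In cells thinned as above, Elane was found in 5.63% (1.56% to 13.8%) and 7.19% (3.64% to 12.5%). Mpo was found in 11.3% (4.99% to 21.0%) and 16.3% (10.9% to 23.2%), and the intervals overlapped for both genes. Of all Mpo UMIs, 49.9% lay in the gate under lenvatinib and 6.79% under combo, and of all Elane UMIs 74.0% and 39.7%. Mpo was thus not a gene of gated neutrophils alone in either library. Mmp9 stayed with neutrophils: neutrophil-like cells that missed the gate, 167 and 137, had 708 and 742 CPM of Mmp9, next to 964 and 1029 CPM in gated cells, while their Camp was at 22.9 and 90.1 CPM and their Ltf at 13.8 and 41.3 CPM. In T-like cells Mmp9 was at 4.31 and 12.8 CPM.

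**Figure D5:**
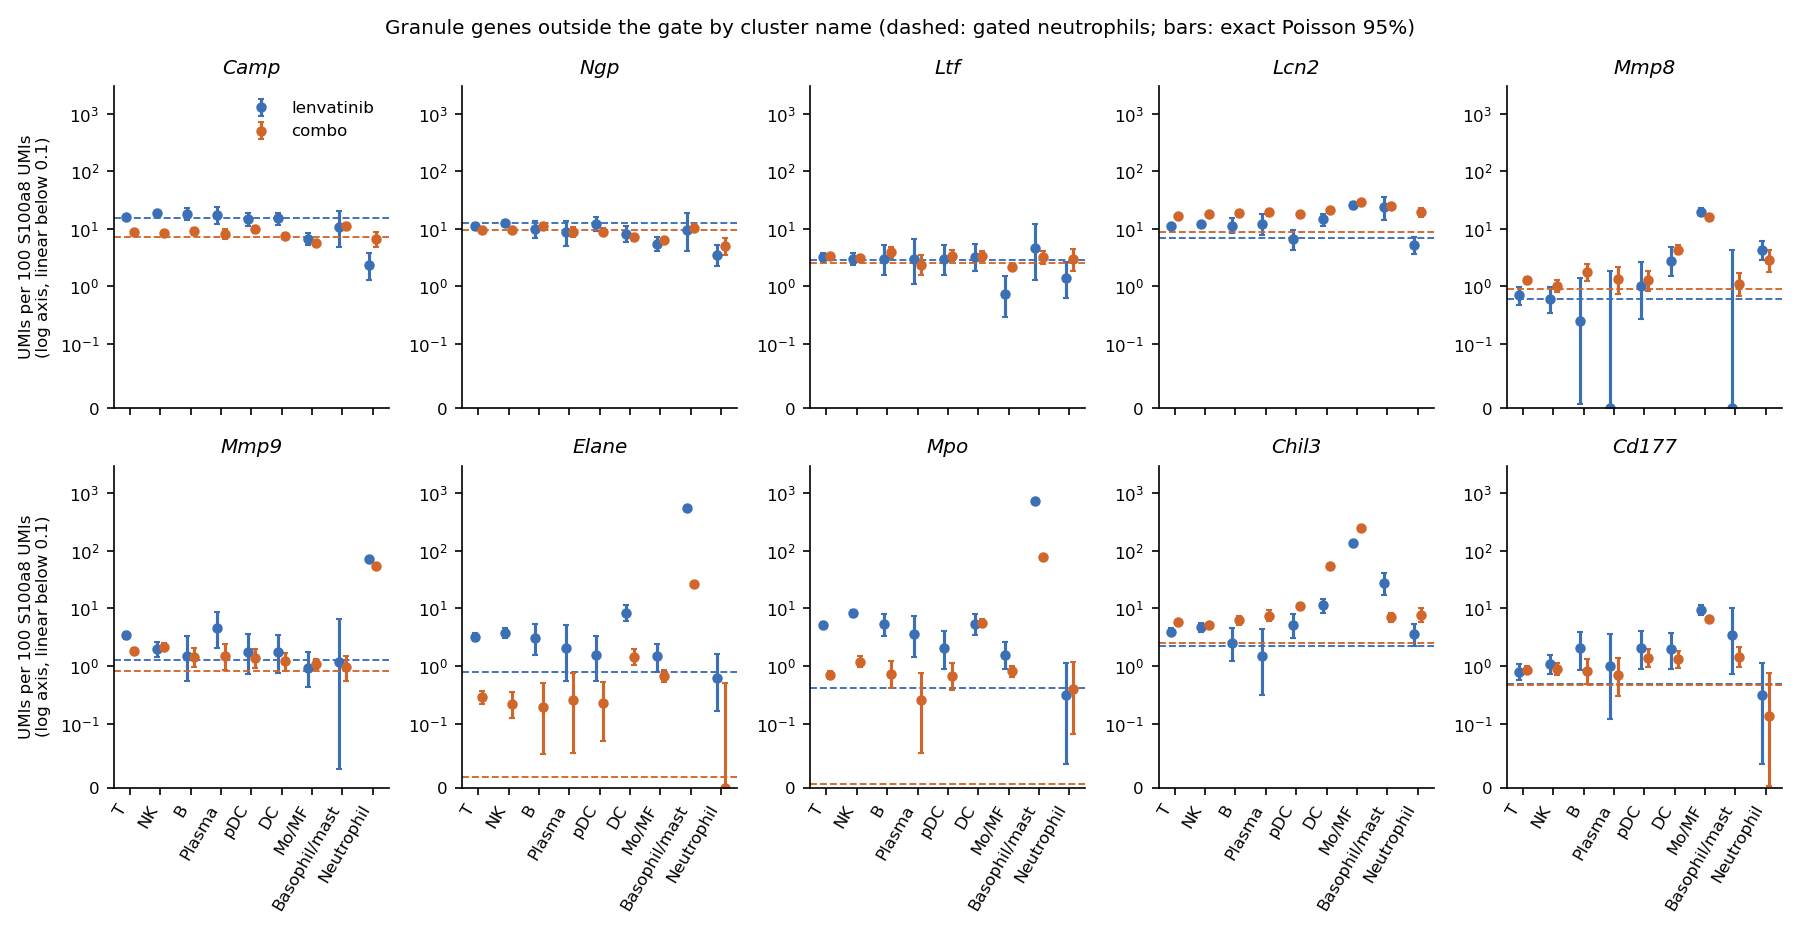
UMIs of each gene per 100 S100a8 UMIs (logarithmic above 0.1, linear below) in cells outside the gate by cluster name, for lenvatinib (blue) and combo (orange); dashed lines give the gated neutrophils of each library and bars exact Poisson 95% intervals of the gene's count. Camp, Ngp and Ltf lie near the dashed lines in lymphoid types. Chil3 in Mo/MF-like, Elane and Mpo in basophil and mast-like, and Mmp9 in neutrophil-like cells lie far above them. Neutrophil-like cells outside the gate are low in S100a8 and S100a9 by the gate itself, so their place above the line does not show raised Mmp9. In CPM, Mmp9 was lower there (708 and 742) than in gated cells (964 and 1029). Elane and Mpo also lie above the lines in most other types. In T-like cells under combo Elane is at 0.287 against 0.0176 in gated cells and Mpo at 0.707 against 0.00555.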

How the data were processed

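Live CD45+ cells of 2 libraries, 1 per group, were profiled with the 10x 3' v3 kit. Per the labels and the study's methods, the authors used Cell Ranger 5.0.1 with mm10, while the matrix headers name 6.0.1, and they deposited filtered matrices of raw UMI counts per gene and barcode, with no normalization (totals 98107503 and 93583402; lowest barcode 500 UMIs). Both are 3' end counts, so gene length does not enter. Cells with more than 6000 genes or more than 25% mitochondrial UMIs were left out, as in the study. Counts were summed over the cells of a set and given as CPM of that set. Neutrophils were gated at 0.5% S100a8 plus S100a9 and binned at Camp shares of 0.03%, 0.1%, 0.3% and 1%. Doublets were called with Scrublet (scanpy 1.11.5, 6% expected); those called (9.15% and 5.80% of gated cells) were kept and left out in an alternative. Cells were clustered with leidenalg 0.10.2 at resolution 1, after scaling to 10000 counts, logging, 3000 variable genes without the 10 genes, S100a8 and S100a9, and 30 components. Clusters were named from fixed markers where at least 3 were detected and no other type led their top 10 genes; a cell type in a hyphenated "-like" name rests on that rule. Python 3.11.15 with numpy 2.4.6 and scipy 1.17.1 was used.

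With 1 library per group no test was run and no p-value is given. A fold was called at 2-fold between libraries and 10-fold between bins, among genes with at least 20 CPM in 1 of the sets; a count under 3 stood at 3 in a fold. The fold calls were tested on simulated data. The genes, lists, gate and bins were chosen with earlier results of these data known. Named genes are the 10 genes, the 4 of each list with the highest mean CPM of the libraries and the 5 most like Ngp, Elane and Mmp9; others are given where a count is small and were then chosen after their values were seen. UMIs are counts of molecules, and the intervals cover counting error only.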

Additional observations from a re-analysis of the deposited data

Results flagged for a closer look

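Camp differed between the libraries in opposite directions in 2 clusters of gated neutrophils. In the cluster led by Cstdc4 the combo to lenvatinib ratio was 4.35 (3.61 to 5.28, from 166 and 3174 UMIs), and in the cluster led by Ptgs2 it was 0.490 (0.365 to 0.656, from 216 and 162 UMIs). The difference between the clusters was not tested, since each holds 1 library per group. In the Ptgs2 cluster 1 cell held 23.1% of the Camp UMIs under lenvatinib and 1 held 33.3% under combo, so that the value there rests on few cells, and in the Cstdc4 cluster 1 cell held 16.3% and 5.64%.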

How the results depend on the processing

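The count of genes at least 2-fold higher under combo, 2 over all gated cells, was 1 (Mmp8) with the gate at 0.25% or 2% or without called doublets, 5 with neutrophil-like clusters in place of the gate and 4 at a 1.5-fold limit; in the Camp class it was 0, and 1 without S100a8 and S100a9 in the total and 2 at 1.5-fold. The count at least 2-fold lower, 2 in both, was 0 with neutrophil-like clusters in place of the gate and 0 without the Elane and Mpo cells, since both settings leave those cells out. The count of 10-fold losses under combo, 2, was 5 at a 5-fold limit and 4 within the neutrophil-like clusters and the cluster led by Elane. The top over none fold under lenvatinib turned for Elane to 0.868 with the clusters in place of the gate, 0.853 with bins by Ngp and 0.595 without the Elane and Mpo cells, and for Mpo to 0.868, 0.0550 and 0.641. Leaving out the Elane and Mpo cells, restricting the gate to these clusters and leaving out the 10 deepest cells were chosen after seeing the data. Of the counts, 75 values under alternatives stayed within 1.5 times and 13 did not. The Camp ratio over all gated cells ran from 0.643 (gate at 2%) to 1.29 (clusters in place of the gate), so its direction was not stable, and that of Mmp9 from 0.927 to 1.2; in the Camp class Camp ran from 0.580 to 0.692. Lcn2 over all gated cells ran from 1.74 to 2.81 and Mmp8 from 2.03 to 2.75. Without their few cells Elane and Mpo were under the minimum of 20 CPM and were not called. No paired analysis was possible because each group has 1 library.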
